A study of Rattus norvegicus with 10 samples.

Results

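The protocadherin genes were followed in RNA-seq of the prefrontal cortex of adult rats. Members were the rows of the deposited gene table whose trimmed symbol begins with Pcdh, whatever its letter case, and there were 47 of them among 16041 rows. They comprised 36 rows of the clustered family, with 4 alpha, 16 beta and 16 gamma rows, and 11 non-clustered genes. The ELS group held 5 male Sprague-Dawley rats that had gone through early life stress, in which dam and pups live with restricted nesting material, from postnatal day 2 to postnatal day 9. The control group held 5 male Sprague-Dawley rats for which the labels give no such treatment. Tissue of both groups was taken at postnatal day 91, with 1 library per tissue sample. Nothing in the labels says that the rats came from separate litters, and the p-values given here therefore speak of variation among 10 tissue samples.

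Protocadherins are cadherin-like adhesion proteins that bind their own kind on the neighbouring membrane. The clustered genes lie side by side in 3 arrays on 1 chromosome. In the alpha and gamma arrays each variable exon has its own promoter and is joined to constant exons shared by its array, whereas beta genes have a single coding exon. In mouse neurons each cell is known to use its own random choice of these promoters, a choice that gives the cell a surface identity used in self-avoidance of its branches, while the last, C-type members of the alpha and gamma arrays are expressed without that choice. The non-clustered genes are spread over the genome and are used in regional, layer-specific or activity-dependent patterns, in roles such as axon growth, synapse turnover and the sorting of circuits.

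Promoter sequence is shown here because beta and gamma members carry strings of letters that most non-clustered members lack. Promoter windows of 250 bases before to 50 bases after the gene start came from RefSeq, build GRCr8, which is not the build rn6 of the expression files. Of the 47 rows, 39 matched a window by symbol, through 38 windows of 37 symbols. Both strands were searched for CGCT, the known core of the conserved element of clustered promoters, and for GGCGCTG and CGCTGT, which both overlap that core and were picked after the windows had been seen. GGCGCTG was in 14 of 14 beta windows, 1 of 13 gamma windows and 2 of 10 non-clustered windows, beside 6.85% of all 33469 windows. CGCTGT was in 10 of 13 gamma windows, 5 of 14 beta windows and 1 of 10 non-clustered windows, beside 9.40% of all windows. The bare core CGCT was too common to separate anything, as it was in 60.9% of all windows and in 8 of 10 non-clustered ones. A match is a string of letters and no measured binding site. The 60 bases around the core are given 5′ to 3′ for 4 beta and 5 gamma members, all on the plus strand of chromosome 18, with 1 copy of the core CGCT in capitals. Pcdhb14, Pcdhgb8 and Pcdhgc3 each hold a second copy on the printed strand, left in lower case. Copies on the opposite strand are neither marked nor counted in the printed stretches.
Pcdhb8: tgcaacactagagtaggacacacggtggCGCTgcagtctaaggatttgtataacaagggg
Pcdhb9: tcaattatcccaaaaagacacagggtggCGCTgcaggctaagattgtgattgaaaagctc
Pcdhb14: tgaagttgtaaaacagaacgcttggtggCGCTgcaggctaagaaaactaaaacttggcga
Pcdhb19: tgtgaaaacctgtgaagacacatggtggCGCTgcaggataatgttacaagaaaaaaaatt
Pcdhga2: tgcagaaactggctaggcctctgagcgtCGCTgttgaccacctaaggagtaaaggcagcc
Pcdhga7: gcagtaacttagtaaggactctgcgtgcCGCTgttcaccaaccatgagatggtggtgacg
Pcdhga9: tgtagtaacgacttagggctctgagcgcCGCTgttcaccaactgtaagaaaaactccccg
Pcdhgb8: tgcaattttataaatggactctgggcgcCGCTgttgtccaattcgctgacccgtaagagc
Pcdhgc3: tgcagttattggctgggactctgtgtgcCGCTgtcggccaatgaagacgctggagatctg
They lie at chr18:29339245-29339304, chr18:29379235-29379294, chr18:29431796-29431855, chr18:29478751-29478810, chr18:29745070-29745129, chr18:29794192-29794251, chr18:29815770-29815829, chr18:29839483-29839542 and chr18:29884053-29884112, in the order printed. The core began between 32 bases (Pcdhga7) and 203 bases (Pcdhb8) before the annotated start. For comparison, the 250 bases before the start of the non-clustered Pcdh8, on the minus strand at chr15:61612091-61612340, hold 3 copies of the same 4 letters on the strand printed, in capitals, in other surroundings.
Pcdh8: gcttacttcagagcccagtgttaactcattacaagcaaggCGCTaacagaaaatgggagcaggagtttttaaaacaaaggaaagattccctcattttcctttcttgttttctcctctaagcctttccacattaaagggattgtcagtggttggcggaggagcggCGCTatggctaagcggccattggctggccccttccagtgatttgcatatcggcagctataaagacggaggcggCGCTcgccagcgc

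Levels were in RPKM, which scales the reads of a row by its length and by the total of its library. Library totals were 18838898 to 22311136 reads, and the mean reads behind a row were a median of 103.9 for clustered rows (22.6 to 3006 reads) and 815.4 for non-clustered genes (94.9 to 3006 reads). Marker genes of neurons and glia were present in all libraries, and 4 of the summed marker lists did not overlap between the groups. Of all single genes tested, 5.68% did not overlap between the groups, and no such share was computed for sums of several genes. Summed markers of mature oligodendrocytes were 804 to 1053 RPKM in ELS, against 1072 to 2221 RPKM in control, and 7 of 7 had an unadjusted p below 0.05 by limma and were lower in ELS. Of all genes tested, 10.3% were lower and 10.1% higher in ELS at that p. Astrocyte markers summed to 791 to 871 RPKM in ELS, against 933 to 1143 RPKM in control (5 of 6 lower in ELS at that p), and oligodendrocyte precursor markers to 38.0 to 41.1 RPKM, against 45.1 to 53.9 RPKM (4 of 5 lower). Pan-neuronal genes summed to 1571 to 1785 RPKM in ELS, against 1274 to 1539 RPKM in control, with 3 of 6 higher and 1 lower at that p. Lists whose sums overlapped also held low values in ELS: microglia markers summed to 70.3 to 87.8 RPKM in ELS, against 82.9 to 99.9 RPKM in control (5 of 7 lower at that p), and erythroid markers to 213.8 to 438.0 RPKM, against 411.5 to 981.0 RPKM (4 of 4 lower). None of the markers in these 6 lists was at 0 in any library. Neuron lists with overlapping sums leaned the other way. Excitatory neuron markers had 7 of 8 log2 fold changes above 0 (2 higher and 0 lower at that p). Interneuron markers had 6 of 6 above 0 (1 higher and 0 lower). The part of marker differences in the protocadherin values was not tested, and in bulk tissue fewer cells of a type and less RNA per cell cannot be told apart. Control replicate 4 stood apart: the mean chi-square per gene against the other control libraries was 41.2 to 43.8, where the other control pairs gave 4.94 to 11.1 and the ELS pairs 2.81 to 15.2. It had the highest oligodendrocyte sum (2221 RPKM), choroid plexus markers at 32.9 RPKM where the other controls had 1.42 to 3.47 RPKM, and interneuron markers at 178.3 RPKM where they had 282.0 to 349.0 RPKM. Striatal projection neuron markers summed to 37.1 RPKM in that library, 59.8 to 127.7 RPKM in the other controls and 64.6 to 71.1 RPKM in ELS. For these markers another control was thus far above the ELS range.

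Non-clustered genes were mostly the more abundant transcripts. Their mean level over the 10 libraries was a median of 11.2 RPKM, that of the clustered rows 2.05 RPKM and that of all genes tested 7.20 RPKM. The highest members were Pcdh10 at 34.4 RPKM, Pcdh1 at 31.8 RPKM, the C-type gamma member Pcdhgc3 at 21.8 RPKM, Pcdh8 at 20.7 RPKM and Pcdh9 at 17.5 RPKM. The Pcdhgc3 row is longer than the other gamma rows, and which exons it holds was not mapped. Its level may include reads of constant exons that all gamma isoforms share, so it is no measure of the C-type isoform alone. Single-library ranges of Pcdh10 and Pcdh1 overlapped, as did those of Pcdh8 and Pcdhgc3, so neither order is larger than the spread between libraries. Among the rows with a random-choice promoter the levels were low and close together, with 15 gamma rows other than Pcdhgc3 at 1.07 to 5.88 RPKM and 16 beta rows at 0.388 to 2.93 RPKM. Summed over rows, the clustered class still made up 41.2 ± 1.72% of all protocadherin RPKM in ELS and 41.1 ± 1.71% in control (SD, n = 5 each).

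**Figure D1:**
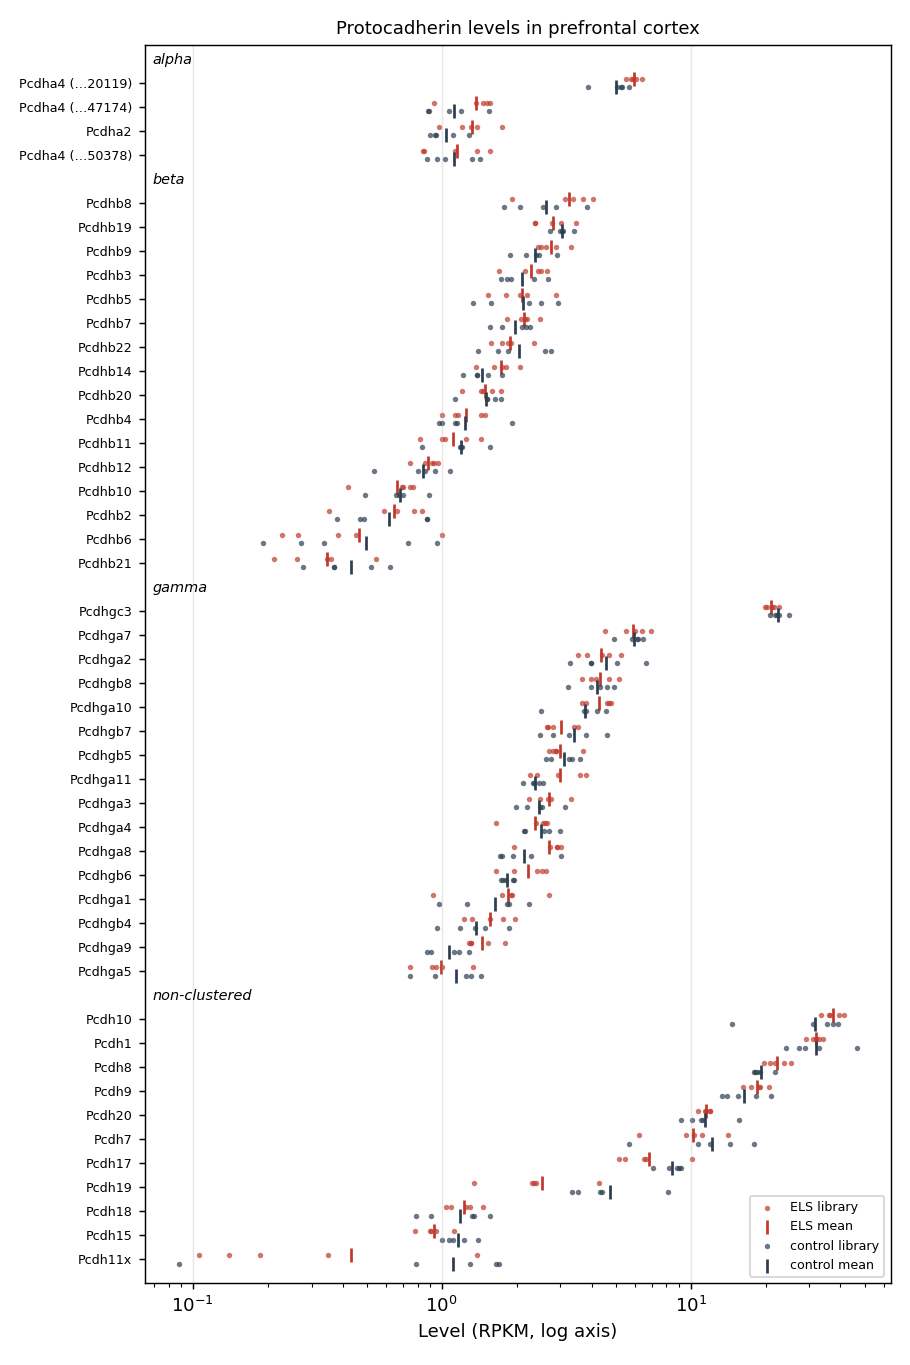
Level of every protocadherin row in each library, in RPKM on a log axis, with a tick at the mean of each group (n = 5), ELS in red above control in blue. Most clustered rows lie below 5 RPKM, while Pcdh10, Pcdh1, Pcdhgc3, Pcdh8 and Pcdh9 lie above 10 RPKM in every library.

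Set against control, no protocadherin was called in ELS. By limma, with Benjamini-Hochberg adjustment over the 14642 genes tested, 0 of the 45 rows in the test had an adjusted p below 0.05, and 0% of all genes did. Limma-voom on the recovered reads also gave 0 members and 0 genes without sample weights, and 2 members among 945 genes with them. The rows Pcdhb6 and Pcdhb21 were below the filter of 0.5 RPKM in at least 5 libraries. At an unadjusted p below 0.05 there were 4 of 45 members (8.89%), beside 20.4% of all genes tested. Those higher in ELS were Pcdh8, the long Pcdha4 row and Pcdhga9, with 10.1% of all genes in that direction, and the lower one was Pcdh19, with 10.3% of all genes in that direction. By class these were 2 of 34 clustered rows (5.88%) and 2 of 11 non-clustered genes (18.2%), and neither share exceeded that of all genes. Members at that p numbered 9 without ELS replicate 2, 8 without control replicate 4 and 7 without control replicate 5, beside 22.6%, 21.8% and 21.5% of all genes. Without ELS replicate 2 and control replicate 4 together they numbered 12 of 44 (27.3%), beside 26.1% of all genes. In 0 of 45 members did the groups separate without overlap, whereas 5.68% of all genes did so. The median log2 fold change of ELS over control was 0.08 for clustered rows (22 above 0 and 12 below) and 0.03 for non-clustered genes (6 above 0 and 5 below), where the median of all genes was 0.0037.

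**Figure D2:**
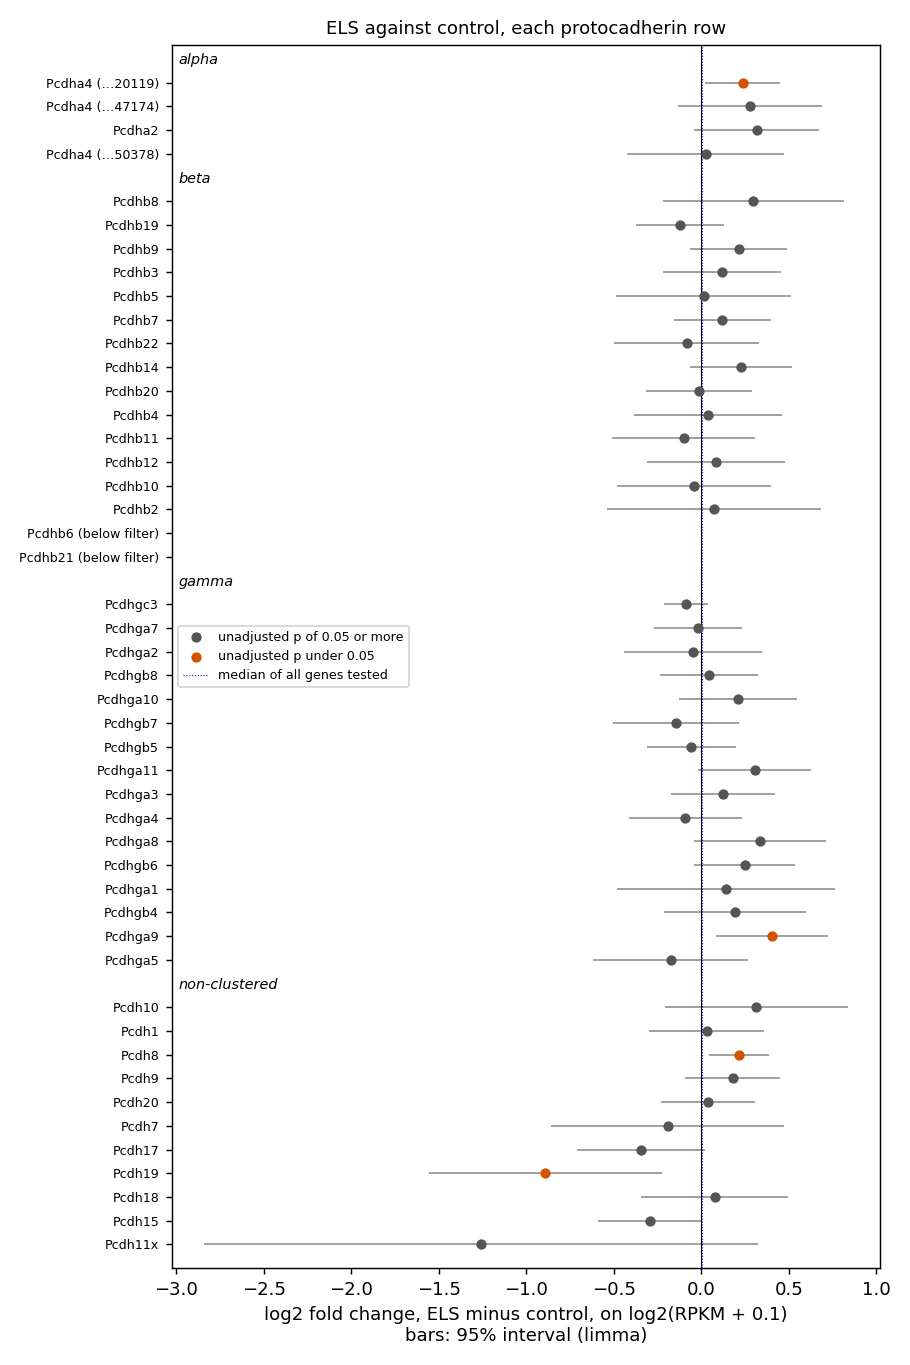
Log2 fold change of ELS minus control for each row on the log2(RPKM + 0.1) scale, with 95% intervals from limma, grouped by class and ordered by mean level. Intervals of 41 of 45 rows include 0, and the 4 rows in orange, with an unadjusted p below 0.05, are the long Pcdha4 row, Pcdhga9, Pcdh8 and Pcdh19.

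Among the X-linked members, both had lower means in ELS and wide spread. Pcdh19 (ENSRNOG00000003929), an adhesion protein whose human gene is mutated in an epilepsy that mostly affects females, was at 2.34, 4.29, 1.35, 2.40 and 2.30 RPKM in ELS replicates 1 to 5, against 4.33, 3.34, 3.53, 8.09 and 4.43 RPKM in control replicates 1 to 5. All 5 ELS libraries lay below the control mean, but ELS replicate 2 reached the control range, and control replicate 4 was far above every other library. Its mean was 2.54 ± 1.07 RPKM in ELS and 4.74 ± 1.93 RPKM in control (SD, n = 5 each), a log2 fold change of -0.89 ± 0.30 (SE, with an adjusted p of 0.163 by limma), with an exact permutation p of 0.0238 (two-sided) where the smallest that 5 against 5 libraries allow is 0.00794. Here and below, exact permutation p-values are unadjusted and are printed only for members below 0.05 by that test. Without ELS replicate 2 and control replicate 4 together, the log2 fold change was -0.89 with an adjusted p of 0.0247, and over all alternatives the adjusted p ran from 0.0247 to 0.312. In that reduced fit 7.44% of all genes passed the adjusted threshold. Both libraries lay apart from their groups in these same values, and dropping them narrows the spread, so the lower adjusted p is no call. Pcdh11x, the other X-linked member, of the delta-1 group, was at 0.351, 1.38, 0.106, 0.187 and 0.140 RPKM in ELS replicates 1 to 5, against 1.66, 1.30, 0.792, 0.0880 and 1.70 RPKM in control replicates 1 to 5. High and low libraries occurred in both groups, since ELS replicate 2 was at the level of the high controls and control replicate 4 was the lowest of all. With 12 to 207 reads behind these values, the log2 fold change was -1.26 ± 0.71 (SE, with an adjusted p of 0.343 by limma), with a 95% interval of -2.84 to 0.33. It was -1.84 without control replicate 4 (adjusted p = 0.115), and over the alternatives in which the gene passed the filter the adjusted p ran from 0.0636 to 0.53. Pcdh11x reached the 0.5 RPKM of the filter only in ELS replicate 2 and control replicates 1, 2, 3 and 5. It thus entered the test mostly through control libraries, and that range holds no fit without any of these libraries.

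The other delta-2 genes include proteins whose tails recruit the actin-regulating WAVE complex. Pcdh17 (ENSRNOG00000008970), known in mouse from synapses of cortex to basal ganglia circuits, was at 5.46, 10.2, 5.17, 6.53 and 6.61 RPKM in ELS replicates 1 to 5, against 8.84, 8.16, 7.05, 8.97 and 9.18 RPKM in control replicates 1 to 5. ELS replicates 1, 3, 4 and 5 lay below all controls and ELS replicate 2 lay above them. The log2 fold change was -0.35 ± 0.16 (SE, with an adjusted p of 0.267 by limma). Without ELS replicate 2 it was -0.50 with an adjusted p of 0.0383, without that library and control replicate 4 together it was -0.48 with an adjusted p of 0.0316, and over all alternatives the adjusted p ran from 0.0316 to 0.456. In these reduced fits 3.03% and 7.44% of all genes passed the adjusted threshold, and the library left out was the one that lay apart for Pcdh17. Pcdh10 (ENSRNOG00000031974), which binds the WAVE complex and whose human gene is linked to autism, was at 36.3, 41.2, 33.3, 39.6 and 36.0 RPKM in ELS replicates 1 to 5, against 39.3, 37.5, 30.9, 14.7 and 35.5 RPKM in control replicates 1 to 5. Only control replicate 4 departed from a common range of 30.9 to 41.2 RPKM, and it was the lowest. The log2 fold change was 0.31 ± 0.24 (SE, with an adjusted p of 0.470 by limma), and it was 0.06 when control replicate 4 was left out (adjusted p of 0.693).

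Pcdh8 (ENSRNOG00000013101), known in rat as arcadlin, is induced by neuronal activity and removes N-cadherin from dendritic spines. It was at 19.7, 20.9, 21.8, 25.3 and 23.6 RPKM in ELS replicates 1 to 5, against 19.0, 17.97, 18.5, 21.9 and 18.2 RPKM in control replicates 1 to 5. All 5 ELS libraries exceeded the control mean and 4 of the 5 controls lay below every ELS library, with control replicate 4 inside the ELS range. Means were 22.2 ± 2.22 RPKM in ELS and 19.1 ± 1.603 RPKM in control (SD, n = 5 each), and the log2 fold change was 0.22 ± 0.08 (SE, with an adjusted p of 0.173 by limma), with an exact permutation p of 0.0397 (two-sided). Limma-voom with sample quality weights on the recovered reads gave 0.25 with an adjusted p of 0.0406, and leaving out ELS replicate 2 and control replicate 4 together gave 0.29 with an adjusted p of 0.0435. In these fits 6.45% and 7.44% of all genes passed the adjusted threshold. Over all alternatives the adjusted p ran from 0.0406 to 0.336. Pcdh18, a further delta-2 gene, was at 1.25, 1.05, 1.09, 1.30 and 1.47 RPKM in the ELS libraries and 1.32, 1.57, 0.905, 0.788 and 1.35 RPKM in the control libraries. The groups covered much the same range, and the log2 fold change was 0.08 ± 0.19 (SE, with an adjusted p of 0.844 by limma).

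The delta-1 genes Pcdh1, Pcdh7 and Pcdh9, whose tails carry an added conserved motif, were abundant and did not separate the groups. Pcdh1, known in human also from the airway epithelium, was at 31.97, 29.0, 34.1, 32.8 and 30.9 RPKM in ELS replicates 1 to 5, against 27.3, 28.7, 24.1, 46.5 and 32.8 RPKM in control replicates 1 to 5. Control replicate 4 was the highest library, and the log2 fold change was 0.03 ± 0.15 (SE, with an adjusted p of 0.922 by limma). Pcdh7, which was first described in heart and brain, was at 11.1, 14.1, 6.18, 10.3 and 9.58 RPKM in ELS replicates 1 to 5, against 14.4, 11.97, 10.8, 5.65 and 17.9 RPKM in control replicates 1 to 5. ELS replicate 3 and control replicate 4 were the lowest libraries, so each group had 1 low value, and the log2 fold change was -0.19 ± 0.30 (SE, with an adjusted p of 0.747 by limma). It was -0.44 without control replicate 4. Pcdh9, broadly present in cortex, was at 19.0, 18.8, 16.2, 20.7 and 17.5 RPKM in ELS replicates 1 to 5, against 18.3, 15.5, 13.4, 14.0 and 21.1 RPKM in control replicates 1 to 5. Values of the groups interleaved, with a log2 fold change of 0.18 ± 0.12 (SE, with an adjusted p of 0.426 by limma).

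Pcdh20, a less studied member, and Pcdh15, best known for the tip link of hair cells in the inner ear, were the remaining non-clustered genes. Pcdh20 was at 11.6, 10.8, 11.99, 11.97 and 11.4 RPKM in the ELS libraries and 11.2, 11.001, 9.12, 15.6 and 10.2 RPKM in the control libraries. Control replicate 4 was the highest library and the log2 fold change was 0.04 ± 0.12 (SE, with an adjusted p of 0.878 by limma). Pcdh15 was at 0.953, 1.12, 0.780, 0.900 and 0.910 RPKM in the ELS libraries and 1.07, 1.39, 1.12, 1.001 and 1.23 RPKM in the control libraries. All 5 ELS libraries lay below the control mean, the groups overlapped, and the log2 fold change was -0.29 ± 0.13 (SE, with an adjusted p of 0.254 by limma), with an exact permutation p of 0.0317 (two-sided). Its level was near 1 RPKM, with 73 to 143 reads behind each value.

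**Figure D3:**
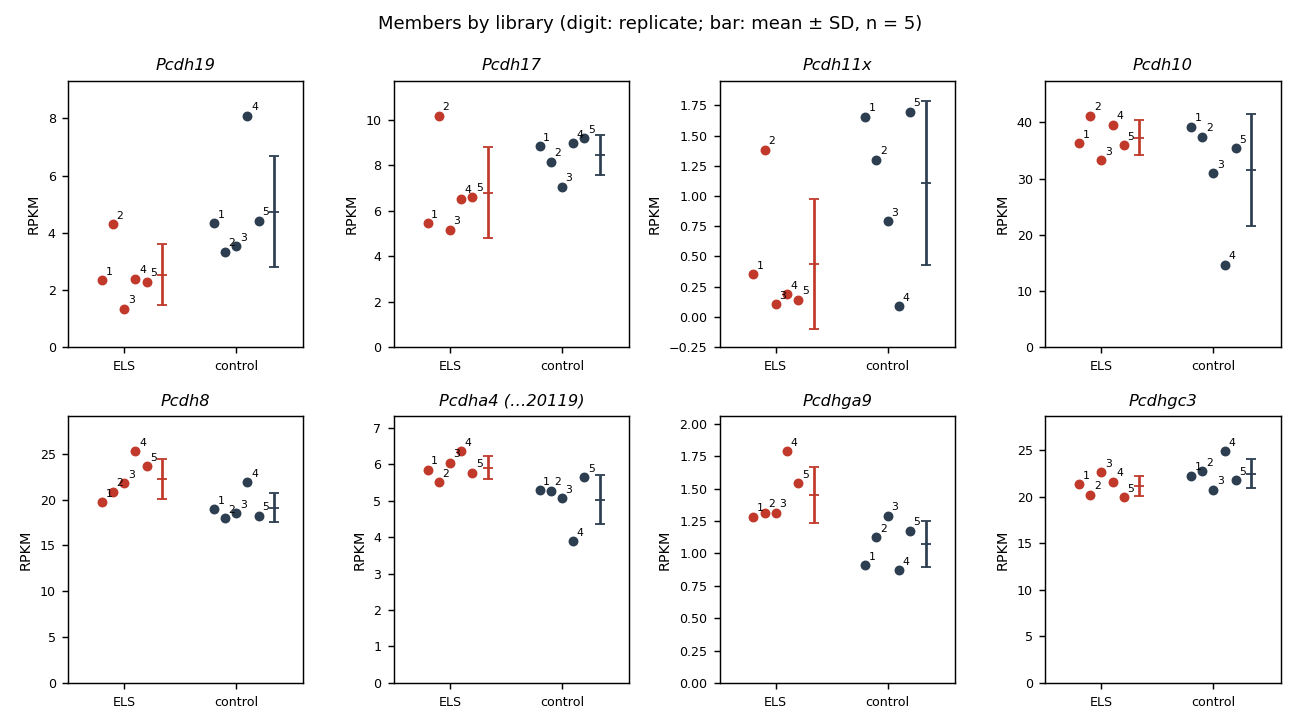
Level in RPKM of 8 members in each library, with replicate numbers beside the points and the mean ± SD (n = 5, reaching below 0 only for Pcdh11x in ELS) at the right of each group, ELS left of control. ELS replicate 2 (Pcdh19, Pcdh17, Pcdh11x) and control replicate 4 (Pcdh19, Pcdh10, Pcdh11x, the long Pcdha4 row) lie apart from the rest of their groups, and the groups overlap in each panel.

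In the alpha array all 4 rows had log2 fold changes above 0, with a median of 0.26, and none passed the adjusted test. The symbol Pcdha4 stood on 3 rows, told apart here by their Ensembl identifiers, and the alpha symbols matched only 1 RefSeq promoter window. The row ENSRNOG00000020119 is the most abundant and has a length of 27070 bases, many times a single variable exon. Reads of exons that isoforms share cannot be given to 1 isoform. It was at 5.85, 5.51, 6.04, 6.36 and 5.77 RPKM in ELS replicates 1 to 5, against 5.29, 5.28, 5.08, 3.88 and 5.64 RPKM in control replicates 1 to 5. All 5 ELS libraries lay above the control mean, and only control replicate 5 reached into the ELS range. The log2 fold change was 0.24 ± 0.10 (SE, with an adjusted p of 0.208 by limma), with an exact permutation p of 0.0159 (two-sided), and it was 0.15 without control replicate 4 (the lowest library). Over all alternatives the adjusted p ran from 0.0928 to 0.379.

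The other alpha rows have the length of 1 variable exon (2370 to 2388 bases) and rest on 39 to 88 reads per library. Pcdha2 was at 1.39, 1.31, 0.979, 1.75 and 1.20 RPKM in ELS replicates 1 to 5, against 1.11, 1.29, 0.950, 0.901 and 0.936 RPKM in control replicates 1 to 5. ELS replicates 1, 2 and 4 exceeded every control, the other values interleaved, and the log2 fold change was 0.32 ± 0.16 (SE, with an adjusted p of 0.296 by limma). The Pcdha4 row ENSRNOG00000047174 was at 1.52, 1.47, 1.38, 1.56 and 0.930 RPKM in ELS replicates 1 to 5, against 0.882, 1.20, 0.888, 1.07 and 1.56 RPKM in control replicates 1 to 5. ELS replicate 5 lay with the low controls and control replicate 5 with the high ELS libraries, and the log2 fold change was 0.28 ± 0.19 (SE, with an adjusted p of 0.420 by limma). The Pcdha4 row ENSRNOG00000050378 had a log2 fold change of 0.02 ± 0.20 (SE, with an adjusted p of 0.956 by limma). Summed over the 4 rows, alpha transcripts were at 9.76 ± 0.907 RPKM in ELS and 8.31 ± 1.02 RPKM in control (SD, n = 5 each), a log2 ratio of 0.23, with ELS replicate 5 (8.75 RPKM) below the 2 highest controls.

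Beta genes showed 0 of 14 tested rows at an unadjusted p below 0.05, beside 20.4% of all genes tested, with a median log2 fold change of 0.06 and a range of -0.12 to 0.30. With 1 library left out, single beta rows fell below that p: Pcdhb8 without ELS replicate 1, Pcdhb14 without ELS replicate 5 and Pcdhb9 without control replicate 5. In these fits 18.2%, 15.9% and 21.5% of all genes were below it. The class was led by Pcdhb8 and Pcdhb19, with Pcdhb8 the higher in ELS and Pcdhb19 the higher in control. Pcdhb8 was at 1.92, 3.38, 3.13, 4.07 and 3.71 RPKM in ELS replicates 1 to 5, against 2.89, 3.82, 1.79, 2.07 and 2.56 RPKM in control replicates 1 to 5. Its libraries spread over a similar range in each group, and the log2 fold change was 0.30 ± 0.23 (SE, with an adjusted p of 0.488 by limma). It was 0.47 without ELS replicate 1 (adjusted p of 0.261). Pcdhb19 was at 2.37, 2.38, 3.47, 3.005 and 2.78 RPKM in ELS replicates 1 to 5, against 3.39, 2.71, 3.03, 2.98 and 3.06 RPKM in control replicates 1 to 5. The values interleaved, with a log2 fold change of -0.12 ± 0.11 (SE, with an adjusted p of 0.568 by limma). Pcdhb9 was at 3.30, 2.44, 2.64, 2.88 and 2.50 RPKM in the ELS libraries and 2.47, 2.19, 2.38, 1.88 and 2.90 RPKM in the control libraries. ELS replicate 1 was the highest library and control replicate 4 the lowest, and the log2 fold change was 0.22 ± 0.13 (SE, with an adjusted p of 0.352 by limma).

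Pcdhb14 and Pcdhb11 had the lowest p in their directions beside those. Pcdhb14 was at 1.62, 1.82, 1.75, 2.07 and 1.37 RPKM in the ELS libraries and 1.39, 1.53, 1.22, 1.39 and 1.74 RPKM in the control libraries, with a log2 fold change of 0.23 ± 0.13 (SE, with an adjusted p of 0.351 by limma). Pcdhb11 was at 1.25, 1.01, 0.815, 1.03 and 1.43 RPKM in the ELS libraries and 1.20, 1.56, 1.20, 0.831 and 1.18 RPKM in the control libraries, with a log2 fold change of -0.10 ± 0.19 (SE, with an adjusted p of 0.787 by limma). In both the groups overlapped, and 38 to 104 reads stood behind each value. The untested rows rest on fewer reads still: Pcdhb6 had 0.192 to 1.01 RPKM (10 to 46 reads) and Pcdhb21 0.212 to 0.622 RPKM (13 to 40 reads) over all libraries, with overlapping groups. Summed beta transcripts were at 25.8 ± 1.16 RPKM in ELS and 24.7 ± 2.85 RPKM in control (SD, n = 5 each).

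In the gamma array, 1 of 16 rows had an unadjusted p below 0.05, beside 20.4% of all genes tested, and the log2 fold changes ran from -0.18 to 0.40 with a median of 0.08. Pcdhga9 (ENSRNOG00000030352), with a random-choice promoter, was at 1.29, 1.32, 1.32, 1.79 and 1.54 RPKM in ELS replicates 1 to 5, against 0.909, 1.12, 1.29, 0.870 and 1.18 RPKM in control replicates 1 to 5. Control replicate 3 alone reached the lowest ELS values, and the other controls lay below every ELS library. Means were 1.45 ± 0.216 RPKM in ELS and 1.07 ± 0.179 RPKM in control (SD, n = 5 each), with 45 to 91 reads per library, and the log2 fold change was 0.40 ± 0.14 (SE, with an adjusted p of 0.173 by limma), with an exact permutation p of 0.0159 (two-sided). No alternative took it past the adjusted threshold, as its adjusted p ran from 0.0791 to 0.342.

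Gamma rows did not share 1 direction, with 9 of 16 above 0 and 7 below. Pcdhga11 was at 2.94, 2.41, 2.25, 3.81 and 3.59 RPKM in the ELS libraries and 2.32, 2.13, 2.47, 2.55 and 2.35 RPKM in the control libraries. ELS replicates 1, 4 and 5 exceeded every control, and the log2 fold change was 0.31 ± 0.15 (SE, with an adjusted p of 0.266 by limma). Pcdhga8, chosen after its values were seen because 2 alternatives call it, was at 2.74, 1.95, 2.89, 3.01 and 2.91 RPKM in the ELS libraries and 1.72, 2.28, 1.93, 3.01 and 1.74 RPKM in the control libraries. ELS replicate 2 was low among ELS libraries and control replicate 4 high among controls, and the log2 fold change was 0.34 ± 0.17 (SE, with an adjusted p of 0.290 by limma). It was 0.49 with an adjusted p of 0.0453 under limma-voom with sample quality weights and 0.57 with an adjusted p of 0.0200 without ELS replicate 2 and control replicate 4 together, where the adjusted p over all alternatives ran from 0.0200 to 0.466. In these fits 6.45% and 7.44% of all genes passed the adjusted threshold, and the libraries left out were those that lay apart for Pcdhga8.

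The 3 gamma rows of highest level had log2 fold changes near 0. Pcdhgc3 (ENSRNOG00000019799), the C-type member, which in cultured cells binds Axin1 and dampens Wnt signalling, was at 21.3, 20.2, 22.6, 21.6 and 19.9 RPKM in ELS replicates 1 to 5, against 22.2, 22.7, 20.8, 24.9 and 21.8 RPKM in control replicates 1 to 5. Its row is 5288 bases long, whereas the other 15 gamma rows have 2379 to 2430 bases, all multiples of 3, so these lengths look like coding lengths of 1 exon. The exons of the longer row were not mapped, and its reads may include those of exons shared with other gamma isoforms. The spread of Pcdhgc3 within groups was the smallest of all members (0.0857 on the log2 scale), and the log2 fold change was -0.09 ± 0.06 (SE, with an adjusted p of 0.402 by limma), with a 95% interval of -0.21 to 0.04. Pcdhga7 was at 4.51, 5.50, 6.37, 6.92 and 5.98 RPKM in the ELS libraries and 5.84, 6.10, 4.94, 6.44 and 6.17 RPKM in the control libraries, with a log2 fold change of -0.02 ± 0.11 (adjusted p of 0.939) by limma. Pcdhga2 was at 5.27, 4.41, 3.85, 4.68 and 3.53 RPKM in the ELS libraries and 3.28, 3.98, 5.04, 3.98 and 6.61 RPKM in the control libraries, with a log2 fold change of -0.05 ± 0.18 (adjusted p of 0.905) by limma. Control replicate 5 was the highest library of Pcdhga2 and ELS replicate 4 that of Pcdhga7, and the groups overlapped throughout. Pcdhgb7 was at 2.65, 2.67, 3.51, 3.40 and 2.79 RPKM in the ELS libraries and 3.23, 3.80, 2.48, 4.63 and 2.81 RPKM in the control libraries, where control replicate 4 was highest and control replicate 3 lowest, with a log2 fold change of -0.14 ± 0.16 (SE, with an adjusted p of 0.643 by limma). Summed gamma transcripts were at 64.8 ± 3.82 RPKM in ELS and 63.96 ± 5.63 RPKM in control (SD, n = 5 each).

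**Figure D4:**
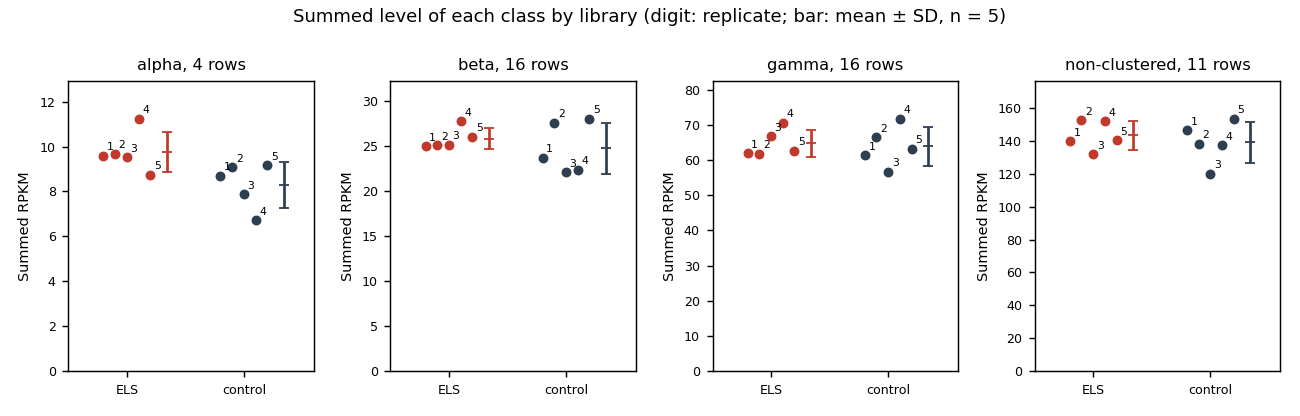
Summed RPKM of each class in each library, with replicate numbers and the mean ± SD (n = 5) beside each group, ELS left of control. Beta, gamma and non-clustered sums cover overlapping ranges in the groups, and in the alpha class the ELS mean of 9.76 RPKM lies above the control mean of 8.31 RPKM with ELS replicate 5 inside the control range.

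Clustered and non-clustered members were then set side by side, as a description with no test. Summed clustered RPKM was 100.4 ± 5.54 in ELS and 97.0 ± 6.73 in control, and summed non-clustered RPKM was 143.5 ± 8.84 in ELS and 139.2 ± 12.5 in control (SD, n = 5 each). Neither sum differed by more than the spread between libraries. With all libraries, single non-clustered genes lay farther from 0 than clustered rows, with a median size of the log2 fold change of 0.216, against 0.121 for clustered rows and 0.118 for all genes. These medians were not computed without control replicate 4, and they include Pcdh11x, which entered the test mostly through control libraries. Non-clustered genes also had more reads per row. Their values ran in both directions, from -1.26 (Pcdh11x) to 0.31 (Pcdh10), and both of those values moved with control replicate 4.

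The spread within groups was compared in the same way. On the log2 scale the standard deviation within groups was a median of 0.289 for non-clustered genes, 0.252 for clustered rows and 0.155 for all genes tested. Without control replicate 4 these were 0.210, 0.246 and 0.129, so the non-clustered value lay above the clustered one only with that library. Set against the variance that counting reads alone would give, the variance within groups was a median of 31.3 times as large for non-clustered genes and 3.44 times for clustered rows, beside 2.97 times for all genes. Mean reads per gene differed between these sets, with medians of 815.4, 103.9 and 326.9, and their part in the ratio was not tested. Control replicate 4 differed from the mean of the other controls by a median of 0.62 on the log2 scale in non-clustered genes, 0.27 in clustered rows and 0.20 in all genes. It lay outside the range of the other 4 controls in 9 of 11 non-clustered genes (81.8%) and 21 of 34 clustered rows (61.8%), beside 61.7% of all genes.

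**Figure D5:**
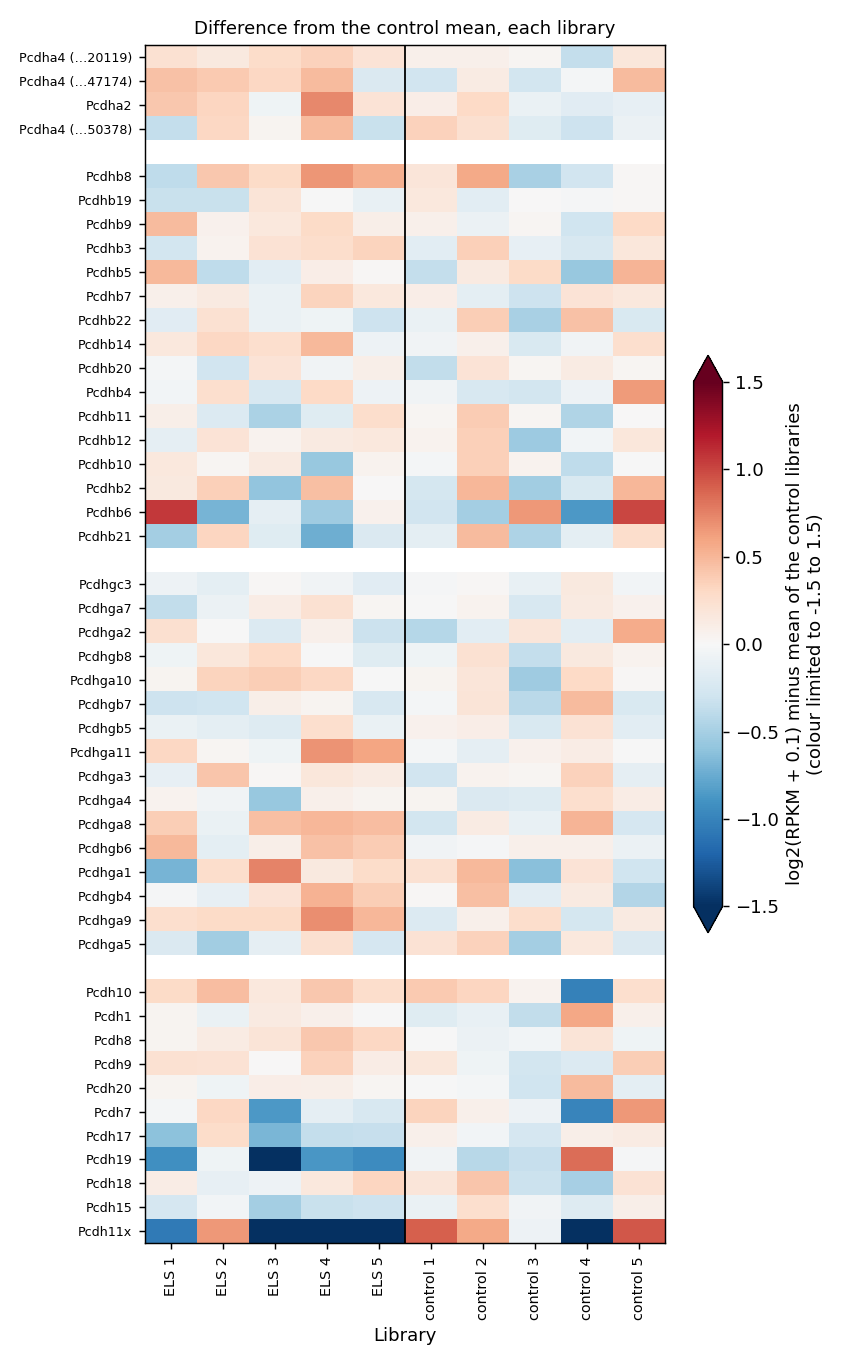
Difference of each library from the control mean on the log2(RPKM + 0.1) scale, one line per row in the order alpha, beta, gamma, non-clustered, with ELS libraries left of control libraries and colours limited to -1.5 to 1.5. The darkest cells include Pcdh11x and Pcdh19 (ELS replicates 1, 3, 4 and 5) and control replicate 4 (Pcdh10, Pcdh7, Pcdh11x), and no column is red or blue throughout the clustered rows.

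Genes that act on or with protocadherins were counted from the same fit. Of 16 measured regulators of the clustered promoters, which include the boundary protein CTCF and cohesin, 1 was higher and 6 were lower in ELS at an unadjusted p below 0.05, with a median log2 fold change of -0.07. Of all genes tested, 10.1% were higher and 10.3% lower in ELS at that p. Nipbl, which loads cohesin on DNA, was at 4.34 ± 0.779 RPKM in ELS and 5.603 ± 0.264 RPKM in control, a log2 fold change of -0.37 ± 0.11 (SE, with an adjusted p of 0.133 by limma). Stag2, a cohesin subunit, was at 7.93 ± 0.528 RPKM in ELS and 9.08 ± 0.368 RPKM in control, and its groups did not overlap (log2 fold change -0.19 ± 0.06, limma adjusted p = 0.138). Smc1a, also a cohesin subunit, had a log2 fold change of 0.12 ± 0.05 (limma adjusted p = 0.222), and Ctcf one of 0.06 ± 0.05 (limma adjusted p = 0.534).

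Among 26 measured partners and effectors, 8 were higher and 1 was lower at an unadjusted p below 0.05, with a median log2 fold change of 0.04. Cyfip2, a WAVE complex subunit, was at 286.2 ± 18.1 RPKM in ELS and 223.0 ± 30.9 RPKM in control, with groups that did not overlap and a log2 fold change of 0.37 ± 0.10 (SE, with an adjusted p of 0.133 by limma). Nlgn2, an inhibitory synapse adhesion protein, had one of 0.16 ± 0.05 (limma adjusted p = 0.149). Prkca, a protein kinase C, was at 13.2 ± 4.71 RPKM in ELS and 23.8 ± 5.36 RPKM in control, a log2 fold change of -0.90 ± 0.26 (limma adjusted p = 0.138), and Cyfip1 had one of -0.19 ± 0.13 (limma adjusted p = 0.444). No gene of either list passed the adjusted threshold, and the shares of all genes at the unadjusted p were those given above.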

How the data were processed

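The authors deposited 1 table of 16041 genes holding 1 length-scaled value (RPKM) per gene for each of 5 ELS and 5 control libraries. No source says whether RPKM or FPKM is meant, so the text uses RPKM. Per the submitters' processing notes, STAR, featureCounts and the build rn6 were used, without versions. Per the labels' protocols the libraries were made with a stranded mRNA kit. How the counting treated strand and multi-mapping reads, and which annotation it used, is a detail not given in the sources used here. Near-identical clustered members, and neighbours on the other strand, could therefore have shared reads, and clustered values are uncertain to that extent.

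Values within a gene were whole multiples of 1 step, from which a script worked back to whole reads, row lengths and totals for 16015 rows, 100% of those above 0, with a tolerance of 0.002 reads. The other 26 rows were at 0 throughout. Totals were 18838898 to 22311136 reads, with 71.1% to 73.7% in the listed genes. Columns of other samples numbered 0.

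Tests used log2(RPKM + 0.1), which understates changes of low genes. A gene needed 0.5 RPKM in a minimum of 5 libraries, which 14642 genes reached. The limma package (3.58.1, R 4.3.3) compared ELS with control using its trended, robust empirical Bayes step. Two-sided p-values were adjusted by Benjamini-Hochberg over these genes, with a threshold of 0.05. The procedure was tested on simulated data. Exact permutation tests of single members went through every assignment of 5 and 5 libraries (scipy 1.17.1). They were computed for all 47 rows, and their p-values are unadjusted. They are printed only for members below 0.05 by that test. Among members printed without one, Pcdha2 had an exact permutation p of 0.0714, and Pcdh17 and Pcdhga8 each had 0.111. The share of all genes below 0.05 by that test was not computed. They use the same libraries as limma, so they are no separate support. Alternatives covered the pseudocount, filter, scaling, moderation, limma-voom on recovered reads, a replicate block and libraries left out.

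Members and gene lists were chosen with earlier results of these data known. Given in every library were each non-clustered member, and in each clustered class the 3 of highest mean, the 2 of lowest p per direction and C-type members, and of other lists the 2 genes of lowest p per direction were named. This gave 25 members, and Pcdhga8 was added after its values were seen. Sequences were matched by symbol to RefSeq (GRCr8).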

Additional observations from a re-analysis of the deposited data

Results flagged for a closer look

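In 10 of 102 groups of 5 libraries, a single library lay so far from the others that its gap exceeded Dixon's critical value of 0.71, where chance flags about 1 group in 20. Of these 10 libraries, 3 were ELS replicate 2 and 2 were control replicate 4.

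ELS replicate 2 was at 1.38 RPKM for Pcdh11x, where the other ELS libraries were at 0.106 to 0.351 RPKM. For Pcdh17 it was at 10.2 RPKM, where the others were at 5.17 to 6.61 RPKM, and for Pcdhga8 at 1.95 RPKM, where they were at 2.74 to 3.01 RPKM. Control replicate 4 was at 8.09 RPKM for Pcdh19, where the other controls were at 3.34 to 4.43 RPKM, and at 21.9 RPKM for Pcdh8, where they were at 17.97 to 18.98 RPKM.

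The other 5 were single clustered rows, with mean reads from 60.3 (the Pcdha4 row) to 149.7 (Pcdhgb5), beside 119.9 for Pcdhga8. ELS replicate 5 was at 0.930 RPKM for the Pcdha4 row ENSRNOG00000047174, where the other ELS libraries were at 1.38 to 1.56 RPKM. ELS replicate 4 was low for Pcdhb10, at 0.420 RPKM where the others were at 0.690 to 0.764 RPKM, and high for Pcdhgb5, at 3.70 RPKM where the others were at 2.70 to 2.88 RPKM. ELS replicate 3 had 1.65 RPKM of Pcdhga4, where the others were at 2.39 to 2.64 RPKM. Control replicate 5 had 1.92 RPKM of Pcdhb4, where the other controls were at 0.973 to 1.16 RPKM.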

How the results depend on the processing

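The 2 negative-binomial count tests that were planned on recovered reads were not run. With 1 library left out in turn, the number of genes past an adjusted p of 0.05 ran from 0 to 440 (the highest without ELS replicate 2), that of protocadherins from 0 to 1, and members at an unadjusted p below 0.05 numbered 2 to 6 higher and 1 to 3 lower in ELS, while 14.6% to 22.6% of all genes were at that p. With sample quality weights in limma-voom, 945 genes and 2 protocadherins (Pcdh8, Pcdhga8) passed the adjusted threshold, and 6 members were higher and 4 lower at the unadjusted p (22.2% of members, beside 25.6% of all genes). Without ELS replicate 2 and control replicate 4 together these were 1071 genes and 4 protocadherins (Pcdh19, Pcdh8, Pcdh17, Pcdhga8), with 8 higher and 4 lower (27.3% of members, beside 26.1% of all genes). Members lower at the unadjusted p numbered 2 with upper-quartile scaling and 3 with unweighted limma-voom (in both directions 11.1% and 13.3% of members, beside 19.8% and 20.4% of all genes). The cause of these shifts was not tested. Fits with a library left out held fewer samples, while the weighted fit held all libraries. The medians and class sums moved by less than their spread under all alternatives run.

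With the replicate number as a replicate block, 2 members were higher (Pcdh8, Pcdhga9) and 2 lower (Pcdh19, Pcdh17) at the unadjusted p, 0 passed the adjusted threshold, and 2505 genes in all were below the unadjusted p, 17.1% of those tested, beside 2988 without the block. The labels do not say whether equal numbers pair the samples. Same-numbered libraries correlated at -0.08 to 0.07 in their deviations from the group means, and 2 of the 5 ELS libraries correlated best with their own number. Such correlations cannot tell whether same-numbered samples shared a litter or a batch.

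Signs turned in 12 of the 539 single-member values, all of them near 0. Pcdh18 was at -0.022 with quality weights. Without ELS replicate 2 and control replicate 4 together, Pcdhga7 was at 0.032 and Pcdhgb7 at 0.011. With 1 library left out, Pcdh18 ran from -0.047 to 0.18, Pcdh20 from -0.035 to 0.16, Pcdh1 from -0.060 to 0.18, Pcdhga2 from -0.15 to 0.095 and Pcdhga7 from -0.082 to 0.070. Pcdh11x fell below the filter in 7 of 21 alternatives. Clustered rows rest on a median of 103.9 reads per library, and how far depth limits them was not tested.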

Other observations

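Other cadherin genes were read from the same fit, with lists chosen with earlier results of these data known. Of 18 measured classical cadherins, 4 were higher and 0 lower in ELS at an unadjusted p below 0.05 by limma, with 0 at the adjusted threshold and a median log2 fold change of 0.17. Of all genes tested, 10.1% were higher and 10.3% lower at that p. Cdh24 was at 10.3 ± 0.574 RPKM in ELS and 8.35 ± 1.45 RPKM in control, a log2 fold change of 0.32 ± 0.12 (SE, with an adjusted p of 0.174 by limma), and Cdh18 was at 11.0 ± 0.551 RPKM in ELS and 7.71 ± 2.57 RPKM in control, a log2 fold change of 0.60 ± 0.25 (limma adjusted p = 0.223), and in both the groups did not overlap. Of those below 0, Cdh19 had a log2 fold change of -0.37 ± 0.17 and Cdh9 one of -0.25 ± 0.26 (limma adjusted p = 0.254 and 0.616).

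Of 12 tested genes among the Fat, Dachsous, Celsr and calsyntenin families and their relatives, 3 were higher and 3 lower at the unadjusted p, beside the same shares of all genes, with 0 at the adjusted threshold and a median log2 fold change of -0.35. Clstn3, a synaptic calsyntenin, was at 102.9 ± 8.31 RPKM in ELS and 83.1 ± 8.01 RPKM in control (log2 fold change 0.31 ± 0.08, limma adjusted p = 0.133). Celsr2, a planar polarity cadherin, had a log2 fold change of 0.20 ± 0.06 (limma adjusted p = 0.133). Dchs1, a ligand of Fat4, was at 1.32 ± 0.0335 RPKM in ELS and 1.91 ± 0.315 RPKM in control, with groups that did not overlap (log2 fold change -0.49 ± 0.12, limma adjusted p = 0.133). Fat4 itself was at 0.451 ± 0.161 RPKM in ELS and 1.09 ± 0.758 RPKM in control (log2 fold change -0.98 ± 0.35, limma adjusted p = 0.170).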
